A study of Mus musculus with 8 samples.

Results

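The neuromuscular junction (NMJ) region of fetal mouse diaphragm that lacks CaV1.1 was compared with that of control diaphragm at E18.5 (in days of embryonic development). CaV1.1 is the skeletal muscle L-type calcium channel, encoded by *Cacna1s*. The region consists of 916 spots, namely 464 and 330 in control sections 1 and 2 and 122 in the single knockout (KO) section, of 12771 spots under tissue in the 8 sections of the series. Muscle spots were those with at least 1000 unique molecular identifiers (UMIs, counted molecules) whose mean log-normalized level of 9 sarcomere and reticulum genes (*Acta1*, *Actn2*, *Des*, *Myl1*, *Mylpf*, *Neb*, *Ryr1*, *Tnnt3* and *Ttn*) lay above a threshold set by Otsu's method in each section. This threshold was 3.79 and 3.58 in control sections 1 and 2 and 3.18 in the KO section, so spots of the KO section counted as muscle from a lower level. NMJ spots were the 15% of muscle spots in each section that scored highest for 7 endplate genes, by the mean of the z-scores of *Ache*, *Chrna1*, *Chrnd*, *Etv5*, *Musk*, *Prkar1a* and *Ufsp1*. These measured levels chose the spots, so each of the 16 genes was read only in regions chosen without it, and none enters a count of called genes. The lowest score inside the region and the highest score outside it were 0.448 and 0.447 in control section 1, 0.390 and 0.387 in control section 2, and 0.768 and 0.764 in the KO section.

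The series measured formalin-fixed, paraffin-embedded diaphragm by probe-based Visium spatial transcriptomics, on 5 µm sections read in spots 55 µm wide and 100 µm apart. It holds 3 control sections and 1 CaV1.1-/- section at E14.5, and 2 control sections, 1 CaV1.1-/- section and 1 section with a muscle deletion of β-catenin (cKO, by Cre under the human skeletal actin promoter HSA) at E18.5. The KO embryos came from crosses of CaV1.1+/- mice, part of them on the HSA-Cre and floxed β-catenin background, and controls had at least 1 working allele of both CaV1.1 and β-catenin. The constitutive KO removes the channel from every cell and the muscle does not contract. Sex and litter were not named. With 1 KO section, a fold change had no replicate of its own, and its spread came from the control groups of 1 fit of all 8 sections, so the KO section was assumed to vary as the controls did.

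At the NMJ the axon terminal of a motor neuron faces a patch of muscle membrane packed with acetylcholine receptors (AChRs). Agrin from the nerve acts through Lrp4 and the kinase MuSK to gather AChRs by way of Dok7 and rapsyn, and the nuclei under the synapse transcribe the receptor genes through Ets factors such as Etv5. The electrical activity and calcium entry of the fiber repress the same genes away from the synapse, and the fetal γ subunit of the receptor (*Chrng*) is replaced by the adult ε subunit (*Chrne*) around birth. CaV1.1 is the voltage sensor that couples the action potential of the fiber to calcium release from the reticulum.

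The markers and the arrangement of the spots were checked first. *Cacna1s* stood at 64.8 and 77.5 CPM (UMIs relative to the library total, scaled between sections by the TMM method) in the NMJ spots of control sections 1 and 2 and at 32.6 in the KO section. It fell in the KO (log2 fold change -1.13, SE 0.22, adjusted p = 0.00779) and was still detected, but scaled to the 9 muscle genes of the rule the fall was no longer called (-0.073, adjusted p = 0.833). The position of its probes relative to the mutation was not given in the sources used here, so this level does not check the label. Of 11 endplate markers that did not enter the score, 9, 11 and 11 had a higher level in NMJ spots than in other muscle spots of control section 1, control section 2 and the KO section. Their median ratios were 1.36, 1.39 and 1.43. Over a set of 9037 genes outside the rule with at least 10 CPM in the NMJ spots of the cKO section, the median ratios were 1.06, 1.03 and 0.975. The KO ratio was below both controls for 6 of the 11 markers and above both for 4. It was below both for 59.9% of the 9037 genes, a share near that of the markers. The NMJ spots of the KO section thus held more of these markers than its other muscle spots. No direction against the controls is read from these counts.

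NMJ spots of the controls formed long bands, as the map of spots shows, while those of the KO section formed 1 short band and scattered groups. Among the muscle spots next to an NMJ spot, 57.8% and 57.6% were NMJ spots in control sections 1 and 2, against 34.9% in the KO section. The same share was 50.4% in the cKO section, and it lay between 36.6% and 45.2% in the 3 control sections of E14.5. With 15% of muscle spots taken in each section, the KO value was the lowest of the 8 sections. With the 74 highest-scoring spots of every section, which are a smaller share of the larger control sections, the order turned, to 22.5% in the KO section against 15.1% and 20.7%. Divided by the share around other muscle spots, the values were 7.58 and 7.25 in the controls against 2.66 in the KO section with 15% of muscle spots, and 6.78 and 6.81 against 2.58 with 74 spots. Without the spots rich in other tissue the KO share was 32.3%, below both E18.5 controls and above control section 1 of E14.5 (30.3%). Each of these values rests on 1 KO section, with no test. The KO section was also smaller than both controls, with 813 muscle spots against 3092 and 2199, and 51.1% of its muscle spots outside the NMJ region lay at the edge of muscle, against 20.7% and 28.4%. The part of size and edge in the share was not tested.

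**Figure D1:**
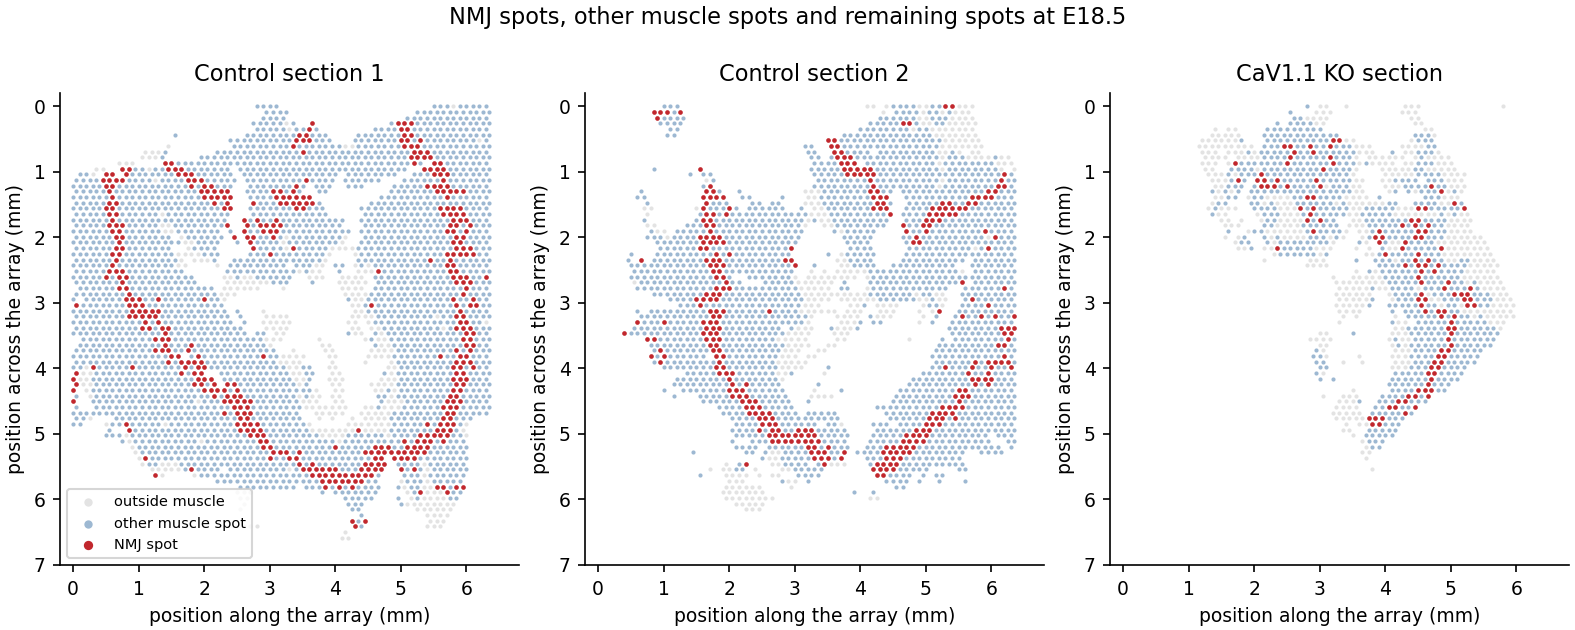
Position of spots on the array (mm, both axes) in the 2 control sections and the KO section at E18.5. Red points are NMJ spots, blue points other muscle spots and grey points spots outside muscle. NMJ spots make long bands in the controls and 1 short band with scattered groups in the KO section, where 34.9% of the muscle neighbors of NMJ spots are NMJ spots against 57.8% and 57.6%.

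NMJ spots held 11952642, 10230758 and 2459388 UMIs in control sections 1 and 2 and the KO section, and the median NMJ spot held 24272.5, 30314.5 and 19346. UMIs were summed per section over NMJ spots and over the other muscle spots, and the sums were tested with edgeR's quasi-likelihood F test. Errors of fold changes are the standard errors (SE) of this fit, and a gene was called at a Benjamini-Hochberg adjusted p below 0.05 over all genes tested. In NMJ spots of the KO, 582 of 12948 genes were called higher than in controls, or 4.49%, and 1018, or 7.86%, were called lower. In other muscle spots, which share these sections, 10.7% of 14660 genes were called higher and 15.3% lower. A test of the difference between the changes of both regions, referred to below as the difference between regions, called 1.53% of 14337 genes with a higher and 0.858% with a lower change in NMJ spots.

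Levels are relative to all UMIs of a sum. When the sums were scaled to the 9 muscle genes instead, the median of all genes in NMJ spots moved from -0.00 to 1.04 and the calls from 582 higher and 1018 lower to 9015 and 107. The same scaling moved the median of all genes to 1.46 in other muscle spots, to -0.37 for the difference between regions, to 0.53 at E14.5 and to 0.51 for the difference between stages. Directions in the text are therefore relative to the median gene, and a fall in NMJ spots by less than 1.04 on the log2 scale turns into a higher level relative to the muscle genes. Of the 52 falls called in NMJ spots among the named genes outside the rule, 32 lost the call under this scaling, against 0 of 40 rises. With 74 spots in every section 12 of these falls and 12 of the rises lost it, and in muscle spots above the median muscle score 13 and 4. In spots, fewer cells of a type and less RNA per cell cannot be told apart.

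Most AChR subunit genes had a higher level in the KO, with a larger change away from the endplate than at it. *Chrna1*, *Chrnb1* and *Chrnd* encode the α, β and δ subunits, which fetal and adult receptors share. *Chrng* (ENSMUSG00000026253, GRCm38 chr1:87205811-87211835) stood at 212 and 197 CPM in the NMJ spots of control sections 1 and 2 and at 335 in the KO section. In the other muscle spots it stood at 99.3 and 83.6 against 196. The KO section was above both controls in both regions, and *Chrng* rose by 0.71 (SE 0.19, adjusted p = 0.0321) in NMJ spots and by 1.1 (SE 0.21, adjusted p = 0.00839) in other muscle on the log2 scale. The difference between regions was -0.42 (SE 0.11, adjusted p = 0.0117).

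*Chrne* (ENSMUSG00000014609, GRCm38 chr11:70614883-70619213) stood at 22.3 and 24.1 CPM in the NMJ spots of the controls and at 46.6 in the KO section, from 210, 189 and 116 UMIs. Outside the region it stood at 1.84 and 1.86 against 8.59. It was higher in the KO in both regions, by 1.01 (SE 0.25, adjusted p = 0.0222) in NMJ spots and 2.21 (SE 0.39, adjusted p = 0.00673) in other muscle, with a difference between regions of -1.24 (SE 0.26, adjusted p = 0.000922). At least 1 *Chrne* UMI was found in 32.1% and 37.6% of control NMJ spots and in 59.8% of KO NMJ spots (95% exact Clopper-Pearson interval 50.6% to 68.6%, for counting error only). The share in other muscle spots was 3.01% and 3.69% against 14.8%, and outside muscle, where the gene should be missing, 2.17% and 2.45% against 3.86%. The median spot outside muscle held 17431 and 20185 UMIs in the controls and 12639 in the KO section, against 23432, 27561 and 19362 in other muscle. With each spot thinned to 10000 UMIs, which leaves out 13, 1 and 8 shallower NMJ spots, the expected share was 15.7% and 16.1% in control NMJ spots and 36.3% in KO NMJ spots. In other muscle spots, with 148, 29 and 56 shallower spots left out, it was 1.27% and 1.2% against 7.80%, and outside muscle 1.39% and 1.2% against 2.99%. In the controls the share in other muscle was thus at the level outside muscle, and in the KO section it was above it. NMJ spots held 71.4% and 72.7% of all muscle UMIs of *Chrne* in the controls and 47.9% in the KO section, while they held 15.8%, 16.3% and 15.1% of all UMIs.

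Among the subunits that entered the score, each read in regions chosen without it, *Chrnd* stood at 229 and 235 CPM against 358 in NMJ spots and at 66.9 and 63.3 against 169 elsewhere in muscle. It rose by 0.63 (SE 0.16, adjusted p = 0.0269) at the endplate and by 1.38 (SE 0.20, adjusted p = 0.00357) outside it. *Chrna1* stood at 330.4 and 343 against 461 in NMJ spots, above both controls and not called (0.45, SE 0.16, adjusted p = 0.0849), and rose by 1.05 (SE 0.18, adjusted p = 0.00692) elsewhere. The difference between regions was -0.63 (SE 0.10, adjusted p = 5.44e-06) for *Chrna1* and -0.79 (SE 0.11, adjusted p = 7.57e-06) for *Chrnd*. *Chrnb1*, whose ratio between regions was 1.24 and 1.18 in the controls, was at 174 and 188 against 158 in NMJ spots and was not called (-0.19, SE 0.14, adjusted p = 0.414, or 0.86 when scaled to the muscle genes). Of the 3 subunits outside the score, 2 were called higher in NMJ spots, where 4.49% of all genes were. The median of these 3 was 0.71 against -0.00 over all genes, or 1.76 against 1.04 when scaled to the muscle genes.

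The rise at the endplate itself depended on how many spots make up the region. With the 74 highest-scoring spots of every section, *Chrne* stood at -0.052 (adjusted p = 0.94) and *Chrng* at 0.37 (adjusted p = 0.27), and neither was called. Without control section 1 or without control section 2, *Chrng* kept its size at 0.76 and 0.66 with adjusted p of 0.053 and 0.0875, *Chrne* lost its call without control section 1 (0.95, adjusted p = 0.0515), and so did *Chrnd*. *Chrne* was also not called by DESeq2 or with 10% of muscle spots taken as NMJ spots.

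The muscle score of the spots differed between regions and sections. The median muscle score was 4.27 in NMJ spots against 4.35 in other muscle spots of control section 1 and 4.33 against 4.37 in control section 2, but 3.97 against 3.85 in the KO section. When only muscle spots above the median muscle score of their section were used, 26 genes in place of 342 were called for the difference between regions, and it was -0.044 for *Chrng* and -0.56 for *Chrne*, with adjusted p of 0.98 and 0.924. This choice also left fewer NMJ spots, 232 and 165 in control sections 1 and 2 and 61 in the KO section. The part of the amount of muscle was not tested. With all muscle spots the difference was not called for either gene when control section 1 or control section 2 was left out (*Chrng* -0.49 and -0.35, *Chrne* -1.28 and -1.19).

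**Figure D2:**
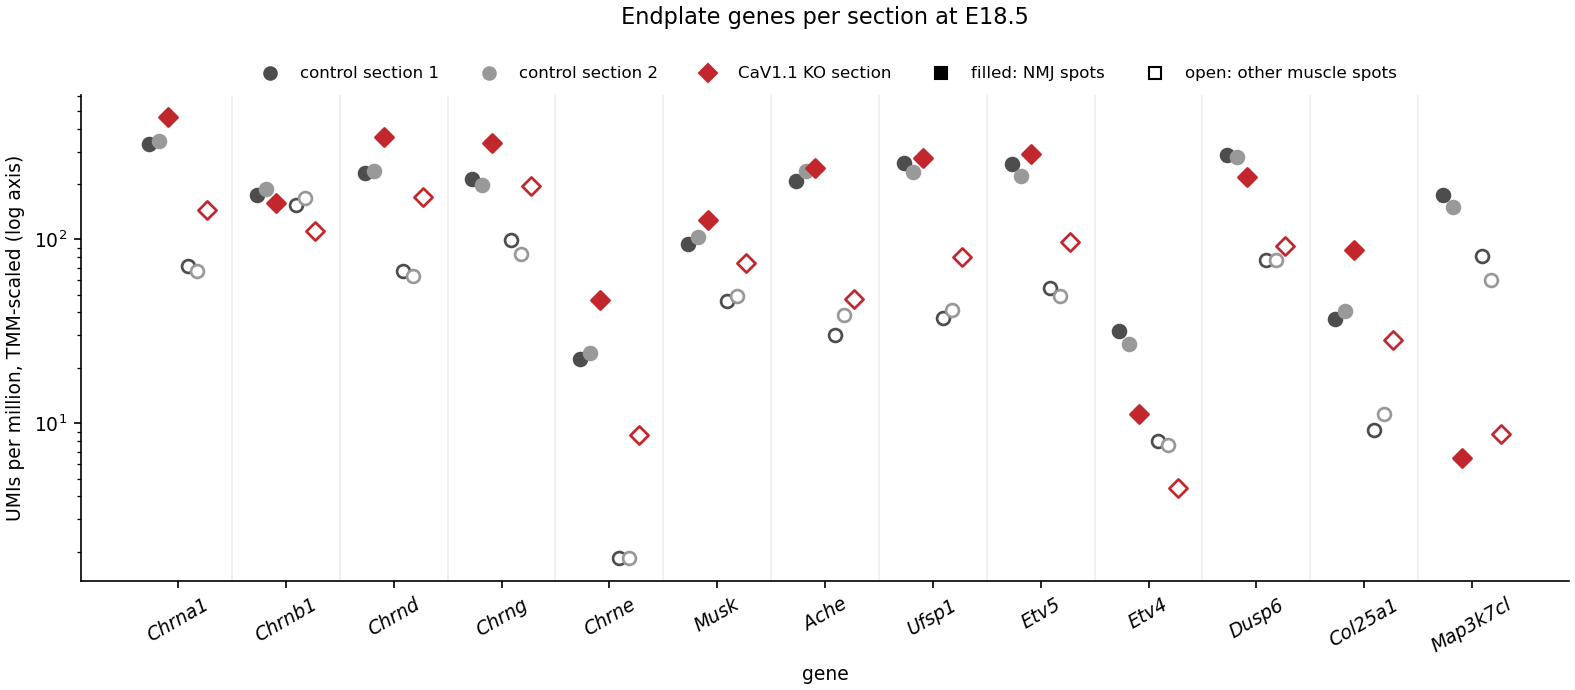
Level of 13 endplate genes (CPM, log axis) in NMJ spots (filled) and other muscle spots (open) of the 2 control sections (grey circles) and the KO section (red diamonds) at E18.5, each point 1 section. For *Chrna1*, *Chrnd*, *Chrng* and *Chrne* the KO section lies above both controls in both regions, while *Etv4* and *Map3k7cl* lie below both controls in NMJ spots.

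The promoters of 3 subunit genes and of *Musk* are shown because the letters that bind myogenic and Ets factors can be read in them beside the levels. Each is the 250 bases before 1 transcript start from RefSeq (GRCm38.p6), 5′ to 3′ on the strand of the gene, and positions count from that start. The *Musk* gene spans chr4:58285729-58377848, so most of its window lies inside the gene span. The *Chrne* window overlaps the end of its gene span. Capitals mark E-boxes (CANNTG, the core bound by myogenic factors such as MyoD and myogenin) and the N-box (CCGGAA on either strand, the core bound by the Ets factor GABP).
Chrna1 (chr2:73580339-73580588, minus strand): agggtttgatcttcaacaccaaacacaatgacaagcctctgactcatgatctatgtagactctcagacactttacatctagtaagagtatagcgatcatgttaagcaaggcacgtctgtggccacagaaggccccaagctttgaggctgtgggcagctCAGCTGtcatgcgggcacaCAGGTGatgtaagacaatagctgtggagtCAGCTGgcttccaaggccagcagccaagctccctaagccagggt
Chrng (chr1:87205561-87205810, plus strand): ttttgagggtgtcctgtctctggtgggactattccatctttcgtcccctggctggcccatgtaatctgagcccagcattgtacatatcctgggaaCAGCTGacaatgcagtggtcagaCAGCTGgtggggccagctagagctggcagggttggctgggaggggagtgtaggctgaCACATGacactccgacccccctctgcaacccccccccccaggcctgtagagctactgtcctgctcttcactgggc
Chrne (chr11:70619195-70619444, minus strand): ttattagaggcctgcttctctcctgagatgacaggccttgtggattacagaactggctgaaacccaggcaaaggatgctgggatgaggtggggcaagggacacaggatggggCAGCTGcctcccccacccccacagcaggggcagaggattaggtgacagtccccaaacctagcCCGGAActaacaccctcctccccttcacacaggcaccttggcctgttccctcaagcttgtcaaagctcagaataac
Musk (chr4:58285712-58285961, plus strand): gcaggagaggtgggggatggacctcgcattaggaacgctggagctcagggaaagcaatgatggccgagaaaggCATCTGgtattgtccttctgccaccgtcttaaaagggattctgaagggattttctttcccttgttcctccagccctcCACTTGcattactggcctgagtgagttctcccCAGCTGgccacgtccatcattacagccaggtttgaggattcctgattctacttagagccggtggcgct
*Chrna1*, *Chrng* and *Musk* each held 3 E-boxes in this window and *Chrne* held 1, at 138 bases before the start. The form CAGCTG, which is also an E-box, occurred at 92 and 44 bases before the start in *Chrna1*, at 155 and 132 in *Chrng*, at 138 in *Chrne* and at 68 in *Musk*. An N-box was found only in the *Chrne* window among these 4, at 76 bases before the start. Of 32851 promoters of the same length, 66.2% held an E-box, 13.0% CAGCTG and 12% an N-box on either strand. A match describes the letters and is no evidence of binding.

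In the agrin and MuSK list, 2 of 11 tested members outside the score fell and none rose, where 7.86% of all genes were called lower and 4.49% higher, with a median of -0.00 (1.05 when scaled to the muscle genes). *Musk* itself, read in regions chosen without it, stood at 94.4 and 103 CPM against 127.7 in NMJ spots, above both controls but not called (0.37, SE 0.17, adjusted p = 0.179), and rose in other muscle (0.65, SE 0.18, adjusted p = 0.0383). *Agrn* (60.8 and 66.6 against 72.8), *Dok7* (23.2 and 26.3 against 27.7) and *Rapsn* (32.0 and 38.6 against 38.2) were not called, with log2 fold changes of 0.19, 0.17 and 0.12. *Lrp4*, the agrin receptor, was at 29.3 and 37.4 against 20.5 and missed the threshold (-0.70, SE 0.24, adjusted p = 0.0799). The members that fell were *Pak1*, a kinase that acts on actin downstream of MuSK, from 139.7 and 112 to 48.2 (-1.38, SE 0.18, adjusted p = 0.00116), and *Dvl1*, a Wnt adaptor that binds MuSK, from 117 and 133 to 77.6 (-0.69, SE 0.16, adjusted p = 0.0182). Scaled to the muscle genes, *Pak1* was at -0.34 and *Dvl1* at 0.36.

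In the list of synaptic transcription and neuregulin signaling, 2 of 15 tested members fell in NMJ spots and none rose, against 7.86% and 4.49% of all genes (median -0.18, or 0.87 when scaled to the muscle genes). Of the Ets factors, *Etv4* fell from 31.9 and 26.9 CPM to 11.3 (-1.39, SE 0.26, adjusted p = 0.00734), while *Etv5*, read in regions chosen without it, stood at 257 and 221 against 290.3 and was not called (0.28, SE 0.18, adjusted p = 0.355). The difference between both genes was not tested. The 95% exact Poisson interval of *Etv4* in the KO section, 7.57 to 16.5 unscaled CPM from 28 UMIs, lay below those of both controls, 22.3 to 28.1 and 17.9 to 23.6. In other muscle *Etv5* rose from 54.6 and 49.0 to 96.5 (0.90, SE 0.13, adjusted p = 0.00405) and *Etv4* fell from 7.98 and 7.61 to 4.43 (-0.82, SE 0.17, adjusted p = 0.0131). The *Etv4* call was lost when scaled to the muscle genes (-0.34, adjusted p = 0.388), in muscle spots above the median muscle score (-1.08, adjusted p = 0.08) and with sums thinned to the smallest (-1.07, adjusted p = 0.0656).

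*Dusp6*, *Map2k1* and *Prkar1a* had a lower change in NMJ spots than in other muscle. *Dusp6*, a phosphatase induced by ERK signaling and not part of the score, stood at 287 and 279.6 CPM in control NMJ spots and at 219 in the KO, below both and not called (-0.37, SE 0.16, adjusted p = 0.153). In other muscle it was at 76.7 and 76.7 against 92.5, above both. Between regions the difference was called at -0.68 (SE 0.10, adjusted p = 1.92e-06), as was that of *Map2k1*, the ERK kinase MEK1, at -0.39 (SE 0.09, adjusted p = 0.00823). *Prkar1a*, a regulatory subunit of protein kinase A gathered at endplates, was at 2049.5 and 2058 against 1885 in NMJ spots and at 580.3 and 610.0 against 763 elsewhere, and neither change was called, whereas the difference between regions was (-0.52, SE 0.10, adjusted p = 0.000742). *Prkar2a*, another regulatory subunit, fell from 242 and 285 to 159 (-0.73, SE 0.16, adjusted p = 0.0145), which turned to 0.32 when scaled to the muscle genes.

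In the synaptic cleft and its basal lamina, 3 of 18 tested members rose and 1 fell, against 4.49% and 7.86% of all genes, with a median of -0.24 (0.81 when scaled to the muscle genes). The membrane collagens rose. *Col25a1*, a muscle collagen that motor axons need to enter muscle, stood at 36.9 and 40.7 CPM in control NMJ spots against 87.6 in the KO (1.18, SE 0.17, adjusted p = 0.0017). It was also higher in other muscle, at 9.21 and 11.2 against 28.3 (1.48, SE 0.20, adjusted p = 0.00292). *Col13a1*, which anchors the synapse, stood at 27.3 and 30.1 against 63.5 (1.15, SE 0.17, adjusted p = 0.00235), and *Nid2*, a basal lamina linker, at 176 and 186 against 304 (0.75, SE 0.14, adjusted p = 0.00661). With 74 spots in every section the changes of *Col25a1* and *Col13a1* were 0.50 and 0.44 and were no longer called (adjusted p = 0.1 and 0.29). *Col4a2* fell just past the threshold (-0.52, SE 0.15, adjusted p = 0.0491), a call lost when either control section was left out. *Ache*, the enzyme that ends transmission, was at 208 and 235 against 245 in regions chosen without it (0.14, SE 0.18, adjusted p = 0.645), and its collagen tail *Colq* at 18.9 and 20.4 against 12.1 (-0.70, SE 0.26, adjusted p = 0.102), with no call for either.

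Among genes of the postsynaptic membrane and scaffold, 2 of 19 rose and 5 fell, against 4.49% and 7.86% of all genes (median -0.31, or 0.74 when scaled to the muscle genes). *Ablim3*, an actin-binding LIM protein, rose from 117 and 90.0 to 245 CPM (1.24, SE 0.21, adjusted p = 0.00456) and *Kcnn3*, a calcium-activated potassium channel, from 17.2 and 15.3 to 31.8 (0.96, SE 0.22, adjusted p = 0.0155). The *Kcnn3* call was lost by DESeq2 (adjusted p = 0.156), with 10% or 25% of muscle spots as NMJ spots (0.78 and 0.59), with 74 spots and in muscle spots above the median muscle score. Scaffold genes that are used along the whole fiber were among those that fell. They included *Flnc* (filamin C, 888 and 877 to 343, -1.36), *Plec* (plectin, -0.76), *Syne1* (which ties nuclei to the cytoskeleton, -0.75) and *Dmd* (dystrophin, -0.56). Scaled to the muscle genes, *Plec*, *Syne1* and *Dmd* turned to 0.29, 0.30 and 0.48. *Ank3*, *Dtna*, *Sntb1*, *Kremen1* and *Ablim3* had a higher change in NMJ spots than in other muscle, with differences between regions of 0.33, 0.50, 0.45, 0.53 and 0.37, none of which was called when scaled to the muscle genes, where *Ank3* and *Ablim3* turned to -0.052 and -0.014. *Ufsp1*, the neighbor of *Ache* in the genome, was at 258 and 234 against 276 in NMJ spots and not called, and rose from 37.4 and 41.5 to 79.9 in other muscle (1.02, SE 0.25, adjusted p = 0.0217).

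The 5 score genes whose change differed between regions, *Chrna1*, *Chrnd*, *Etv5*, *Prkar1a* and *Ufsp1*, all had the lower change in NMJ spots (-0.63, -0.79, -0.66, -0.52 and -0.89), and *Musk* and *Ache* pointed the same way without a call (-0.30 and -0.36). In each of the 3 sections all 7 had a higher level in NMJ spots than elsewhere. The ratio of NMJ to other muscle spots in unscaled CPM was, for *Chrna1*, 5.04 and 5.40 in the controls against 3.07 in the KO section. For *Ufsp1* it was 7.57 and 5.90 against 3.30, and for *Chrne*, outside the score, 13.4 and 13.7 against 5.18. The KO section was the lowest of the 3 for each of these genes. The 9 muscle genes had a higher change in NMJ spots, from 0.33 to 0.39 relative to the median gene, and in regions chosen without the gene *Mylpf* fell from 43074 and 43738 to 21133 CPM in NMJ spots (-1.04, SE 0.18, adjusted p = 0.00489) and by more elsewhere (-1.47). Each comparison of regions rests on few sections. The difference was called for 342 genes with both controls and for 61 without control section 1. DESeq2 called 0 genes, with 350 at an unadjusted p under 0.05, where edgeR had 1634. Without control section 1 the calls of *Chrng*, *Chrne*, *Map2k1*, *Ablim3*, *Ank3* and *Sntb1* were among those lost. For the 7 score genes and the 9 muscle genes, the difference between regions was fitted only by edgeR with all sections. Whether their calls depend on these choices was not tested.

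To read the endplate by genes that neither the rule nor this contrast chose, 30 genes with at least 10 CPM and a ratio of at least 2 between NMJ and other muscle spots of the cKO section were taken, a choice made after seeing the data. Their median ratio was 2.89 and 2.56 in control sections 1 and 2 and 1.96 in the KO section. The ratio of the KO section was below both controls for 24 of the 30 genes, between them for 3 and above both for 3, while it was below both for 59.9% of 9037 other genes of that level, with no test. In the KO 9 of the 30 fell in NMJ spots and 3 rose, against 7.86% and 4.49% of all genes (median -0.30, or 0.75 when scaled to the muscle genes).

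Of the 30, channel subunit genes were among those that fell. *Scn3b*, a sodium channel β subunit, fell from 219.6 and 174 to 92.5 in NMJ spots (-1.09, SE 0.18, adjusted p = 0.0034) with a difference between regions of -0.69 (SE 0.14, adjusted p = 0.000732). *Kcne1l*, a potassium channel accessory subunit, fell from 85.8 and 80.7 to 26.9 (-1.63, SE 0.20, adjusted p = 0.000812), *Crym* from 74.8 and 67.7 to 31.4 (-1.18, SE 0.23, adjusted p = 0.00797) and *Klhl6* from 35.3 and 24 to 13.7 (-1.12, SE 0.30, adjusted p = 0.0337). *Bend4* was at 8.72 and 8.55 against 2.41 (-1.83, SE 0.44, adjusted p = 0.0201). All 5 of these falls lost their call when scaled to the muscle genes and in muscle spots above the median muscle score. For *Pdzrn4*, which was not called in NMJ spots, the ratio between regions was 7.07 and 6.33 in the controls and 2.58 in the KO section.

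*Map3k7cl* (ENSMUSG00000025610, GRCm38 chr16:87553330-87595336) was low in both regions of the KO and not higher in its NMJ spots than elsewhere. It stood at 174 and 149 CPM in control NMJ spots and at 6.43 in the KO section, from 1637, 1167 and 16 UMIs. In other muscle it stood at 81.4 and 60.0 against 8.72. The level in the KO was 25-fold lower in NMJ spots (-4.65, SE 0.29, adjusted p = 8.39e-06), and the difference between regions was -1.67 (SE 0.34, adjusted p = 0.000628). The ratio of NMJ to other muscle spots was 2.35 and 2.62 in the controls, 3.09 in the cKO section and 0.703 in the KO section, and 0.537 to 0.601 in the E14.5 controls. The level in the cKO was 127 CPM in NMJ spots. The difference between regions was not called in muscle spots above the median muscle score or by DESeq2.

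**Figure D3:**
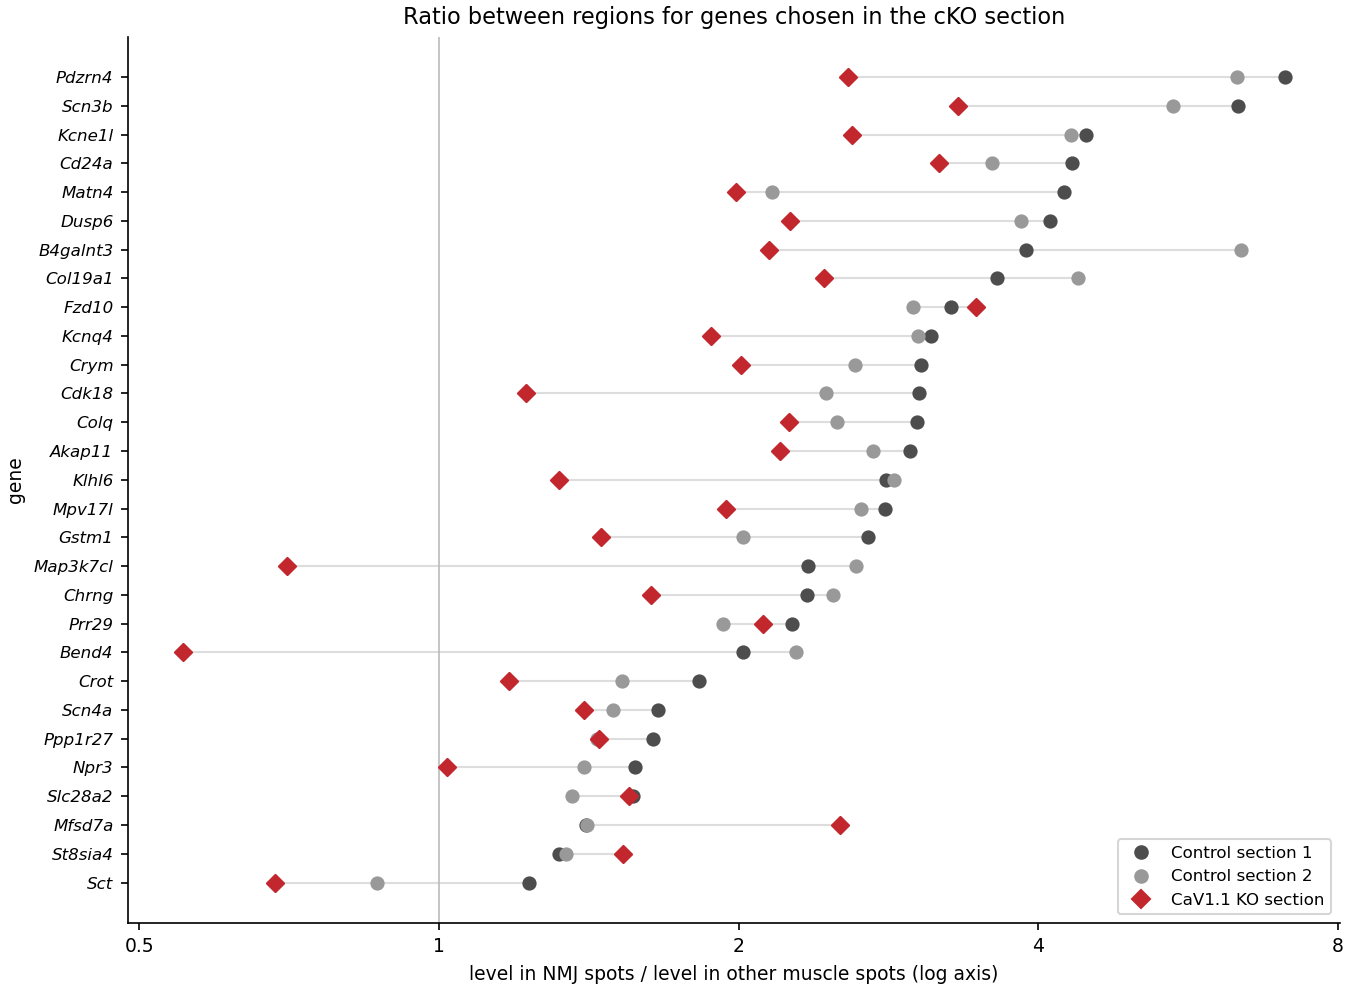
Ratio of the level in NMJ spots to that in other muscle spots (log axis, unscaled CPM) for 29 of the 30 genes chosen in the cKO section, in the 2 control sections (grey circles) and the KO section (red diamonds) at E18.5. The KO section lies below both controls for 23 of those shown, and for *Map3k7cl*, *Bend4* and *Sct* it lies below 1, at 0.703, 0.553 and 0.685. *Sct* also lies below 1 in control section 2, at 0.867.

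Cues from muscle to motor axons split both ways, with 2 of 36 higher and 3 lower in NMJ spots (median 0.07, or 1.12 when scaled to the muscle genes), shares near those of all genes. *Ptn*, the growth factor pleiotrophin, stood at 306 and 300.1 CPM against 698 (1.2, SE 0.15, adjusted p = 0.000974) and *Sema6b*, a membrane semaphorin, at 31.9 and 29.0 against 53.5 (0.81, SE 0.19, adjusted p = 0.0188). *Sema3c*, a secreted semaphorin, fell from 55.8 and 59.9 to 21.7 (-1.41, SE 0.22, adjusted p = 0.00235), *Vegfa* from 115 and 129 to 57.1 (-1.1, SE 0.15, adjusted p = 0.00119) and *Efnb2*, an ephrin ligand, from 41.3 and 38.6 to 20.5 (-0.96, SE 0.25, adjusted p = 0.028). Scaled to the muscle genes all 3 lost the call, at -0.36, -0.049 and 0.084. *Slit2*, an axon repellent, was at 18.1 and 18.9 against 19.7 in NMJ spots and rose from 20.1 and 16.1 to 32.4 in other muscle, with a difference between regions of -0.77 (SE 0.23, adjusted p = 0.0497). *Efnb1* did the same, with 57.9 and 54.3 against 49.4 in NMJ spots, 25.6 and 26.0 against 39.2 elsewhere and a difference of -0.82 (SE 0.16, adjusted p = 0.000331). Without control section 1 *Efnb2* was no longer called (-0.91, adjusted p = 0.0551), and without control section 2 *Sema6b* was not (0.74, adjusted p = 0.0507).

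Of 28 endplate genes that the study names from these sections, 4 rose and 4 fell, against 4.49% and 7.86% of all genes (median -0.18, or 0.87 when scaled to the muscle genes). The list was chosen on these libraries and is not independent evidence of its direction. *Matn4*, a matrix protein and the member with the highest change, stood at 20.2 and 29.6 CPM against 81.6 (1.72, SE 0.23, adjusted p = 0.00119). *Lrtm1*, a leucine-rich repeat membrane protein, was at 240.4 and 263 against 224 and not called (-0.17, SE 0.13, adjusted p = 0.427).

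Genes of the response known from denervated or inactive muscle moved both ways. Of 23 tested members 7 rose and 3 fell, against 4.49% and 7.86% of all genes, with a median of 0.06 (1.11 when scaled to the muscle genes). *Myog*, the factor myogenin that drives AChR genes after denervation, rose from 333 and 343 CPM to 575 (0.77, SE 0.15, adjusted p = 0.00869), *Gadd45a*, a stress gene that inactive fibers induce, from 72.1 and 71.4 to 129 (0.85, SE 0.13, adjusted p = 0.00218), and *Hdac4*, which passes the loss of activity on to *Myog*, from 70.2 and 79.7 to 121 (0.70, SE 0.13, adjusted p = 0.00667). *Ampd3* (10.1 and 9.83 to 28.9), *Igfbp5* (745 and 863 to 1290.4), *Sh3rf2* (6.38 and 13.0 to 24.9) and *Chrng* were the other members that rose. *Hdac9*, a histone deacetylase that represses muscle genes, fell from 53.5 and 46.2 to 30.2 (-0.73, SE 0.21, adjusted p = 0.0466) and so did the embryonic myosin *Myh3*, from 7986 and 7121 to 2439 (-1.63, SE 0.20, adjusted p = 0.000719). Without control section 1 the calls of *Igfbp5*, *Sh3rf2* and *Hdac9* were lost. Among myogenic factors and fusion genes 2 of 11 rose, *Myog* and the fusion peptide gene *Mymx* (57.7 and 52.1 to 125, 1.19, SE 0.18, adjusted p = 0.00219), and none fell (median -0.20, or 0.84 when scaled to the muscle genes).

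Part of the genes that muscle activity and load induce fell relative to the median gene. Of 25 members of the activity list 11 fell, 1 rose and 13 were not called, where 7.86% of all genes fell and 4.49% rose (median -0.59, or 0.46 when scaled to the muscle genes). *Ankrd2* (ENSMUSG00000025172, GRCm38 chr19:42035917-42045111), a stretch-responsive ankyrin repeat protein, stood at 143 and 194 CPM in control NMJ spots and at 1.61 in the KO section, counted as 1344, 1521 and 4 UMIs. Its level in the KO was 103-fold lower (-6.69, SE 0.42, adjusted p = 8.39e-06), from 4 UMIs. *Csrp3*, a mechanosensor at the Z-disc, fell from 1473 and 1472 to 59.5 (-4.63, SE 0.27, adjusted p = 7.66e-06) and *Ankrd1* from 57.5 and 60.3 to 12.5 (-2.24, SE 0.21, adjusted p = 0.0002). The immediate early genes *Fos* (21.6 and 31.4 to 6.03, -2.13) and *Atf3* (35.2 and 39.4 to 12.1, -1.63) fell, as did *Srf*, which encodes a factor that reads actin dynamics (234 and 201 to 75.6, -1.52), and the calcium-regulated *Nfatc1* (8.40 and 11.9 to 2.41, -2.06), whose call was lost without control section 2. *Klf5* was the member that rose (34.4 and 44.2 to 86.8, 1.15, SE 0.17, adjusted p = 0.00228).

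Part of the genes of contraction and calcium handling fell relative to the median gene. Of 28 genes of excitation-contraction coupling 12 fell, none rose and 16 were not called, where 7.86% of all genes fell (median -0.54, but 0.50 when scaled to the muscle genes). *Srl*, encoding the sarcoplasmic reticulum protein sarcalumenin, fell from 359 and 359 to 142 CPM (-1.34, SE 0.18, adjusted p = 0.00131), *Jph2*, which joins the reticulum to the surface membrane, from 312 and 357 to 149.9 (-1.16, SE 0.17, adjusted p = 0.00192), and the calcium pump *Atp2a1* from 10973 and 12814 to 6034 (-0.98, SE 0.20, adjusted p = 0.0105). *Casq2*, a calcium store protein, fell from 2838 and 2441 to 1319. Scaled to the muscle genes none of these 4 was called, with *Srl* at -0.30, *Jph2* at -0.11, *Casq2* at 0.042 and *Atp2a1* at 0.074. Of 12 myosin chains 8 fell and 2 rose (median -0.91, or 0.14 when scaled to the muscle genes), and of 6 troponins 3 fell and 1 rose (median -0.43, or 0.62).

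Myosin chains of slow fibers went both ways. *Myl2*, the slow regulatory light chain, stood at 465 and 616 CPM against 19.7 (-4.78, SE 0.27, adjusted p = 7.66e-06), the slow essential chain *Myl3* at 204 and 317 against 46.2 (-2.49, SE 0.29, adjusted p = 0.00061) and the slow heavy chain *Myh7* at 2728 and 3857 against 779 (-2.08, SE 0.21, adjusted p = 0.00029). *Myh4*, the fast type IIb heavy chain, stood at 191 and 294 against 1062, a 4.39-fold rise (2.13, SE 0.20, adjusted p = 0.0002). *Myh7b*, a slow heavy chain, was the other member that rose (41.8 and 55.8 to 81.2, 0.74, SE 0.21, adjusted p = 0.0416). The neonatal *Myh8* fell from 38926 and 40839 to 23589.5 (-0.76, SE 0.19, adjusted p = 0.0258), which was lost without control section 2, and the fast troponin *Tnni2* from 2626 and 3291 to 999 (-1.57, SE 0.19, adjusted p = 0.00075). *Tnnt2*, the cardiac and embryonic troponin T, was the troponin that rose (1067 and 1333 to 1977, 0.72, SE 0.18, adjusted p = 0.0266), a call lost without control section 1. *Myl2* and *Myh7* were at 21.4 and 298 in the cKO section, below both controls as well.

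Energy genes fell together, with 45 of 70 nuclear-encoded respiratory chain genes lower, where 7.86% of all genes were, and none higher (median -0.68, but 0.37 when scaled to the muscle genes) and 11 of 19 genes of muscle energy metabolism lower and none higher (median -0.72, but 0.33). *Fabp3*, a fatty acid carrier, fell from 481 and 479 to 135 CPM (-1.83, SE 0.17, adjusted p = 0.0002). *Ckm*, muscle creatine kinase, fell from 22002 and 22199 to 11500.1 (-0.94, SE 0.21, adjusted p = 0.015), or 0.11 when scaled to the muscle genes.

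Genes of protein folding in the endoplasmic reticulum (ER) had the largest share of rises among the 18 lists. Of 21 tested members 15 rose in NMJ spots, where 4.49% of all genes did, and none fell (median 0.73, or 1.77 when scaled to the muscle genes). *Sdf2l1*, an ER chaperone partner, stood at 14.8 and 13.4 CPM against 62.7 (2.15, SE 0.18, adjusted p = 5.9e-05), *Dnajb9* at 8.40 and 7.91 against 31.8 (1.96, SE 0.27, adjusted p = 0.00143) and the chaperone *Hyou1* at 78.9 and 55.4 against 188 (1.48, SE 0.19, adjusted p = 0.000965). *Hspa5*, the ER chaperone BiP, rose from 732 and 533 to 1403 (1.15, SE 0.18, adjusted p = 0.00263) and *Hsp90b1* from 676 and 565 to 1103 (0.83, SE 0.16, adjusted p = 0.00808). *Ddit3*, the stress factor CHOP, was at 31.2 and 35.9 against 25.3 and not called (-0.40, SE 0.21, adjusted p = 0.239). The same list had a median of 0.72 in other muscle spots, and no member was called for a difference between regions. In the cell cycle list 3 of 17 rose and none fell, and 1 of 34 clustered histone genes rose and none fell (medians 0.36 and 0.09, or 1.41 and 1.13 when scaled to the muscle genes).

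**Figure D4:**
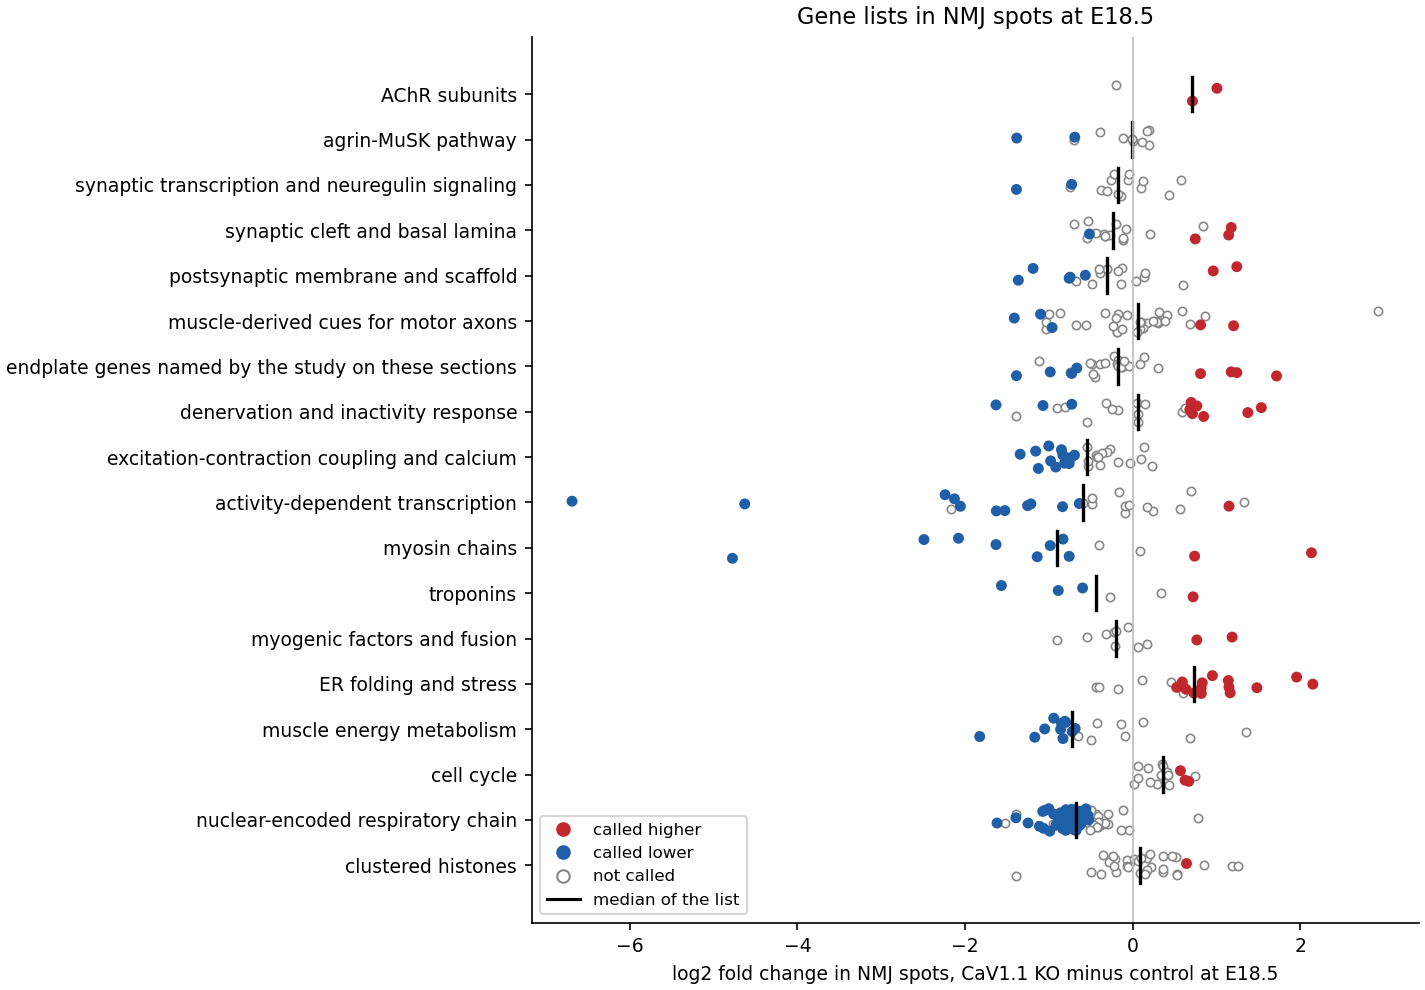
log2 fold change in NMJ spots at E18.5, KO minus control, for each tested gene of 18 lists without the score and muscle genes (1 point per gene, spread vertically at random within its list). Red and blue points were called higher and lower, open points were not called, and black bars are list medians, from -0.91 for myosin chains to 0.73 for ER folding and stress. Scaled to the 9 muscle genes, all 18 medians lie above 0, from 0.14 to 1.77.

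Past these lists, the 12 largest falls among genes called, of a log2 CPM averaging 5 or more and with the KO outside the range of both controls, were those of *Ankrd2*, *Myl2*, *Map3k7cl*, *Csrp3*, *Thbs4*, *Tppp3*, *Smtnl1*, *Fhl1*, *Aspn*, *Tnfrsf12a*, *Tnxb* and *Myl9*, from -6.69 to -2.50. *Thbs4*, a matrix protein of muscle and tendon, fell from 151 and 159 to 14.9 CPM (-3.37, SE 0.22, adjusted p = 8.85e-06), *Fhl1*, a LIM protein of the sarcomere, from 2348 and 2591 to 286 (-3.11, SE 0.19, adjusted p = 7.66e-06), *Smtnl1* from 527 and 653 to 67.1 (-3.14, SE 0.20, adjusted p = 8.85e-06) and *Tppp3* from 840.4 and 948 to 91.3 (-3.29, SE 0.19, adjusted p = 7.66e-06). *Tnxb*, *Aspn* and *Thbs4* are matrix genes of connective tissue, and *Tnxb* and *Aspn* stood at 156 and 209 and 141 and 131 in the controls against 31.8 and 16.5. *Tnfrsf12a*, the receptor of the cytokine TWEAK, fell from 218 and 244 to 31.0 and the smooth muscle light chain *Myl9* from 314 and 309.8 to 55.1. All 12 kept their direction and their call under every alternative fitted for them.

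The 12 largest rises by the same rule were those of *Myh4*, *Slc4a3*, *Apoe*, *Gdf10*, *Matn4*, *Cma1*, *Plekha4*, *Nell2*, *Hyou1*, *Tns3*, *Samhd1* and *C1qa*, from 2.13 to 1.38. *Slc4a3*, an anion exchanger, rose from 26.9 and 33.1 to 113 CPM (1.91, SE 0.17, adjusted p = 0.000123), *Gdf10* from 17.0 and 28.5 to 77.6 (1.78, SE 0.27, adjusted p = 0.00218), *Plekha4* from 39.2 and 39.8 to 115 (1.53, SE 0.16, adjusted p = 0.000288) and *Tns3*, a focal adhesion protein, from 65.4 and 67.8 to 175 (1.40, SE 0.15, adjusted p = 0.000433). *Apoe* (57.9 and 114 to 302), *C1qa* (64.8 and 93.8 to 206) and *Cma1*, a mast cell protease (19.3 and 26.3 to 70.4), are known from immune cells, and *Nell2* (19.9 and 33.3 to 76.0) and *Samhd1* (26.4 and 24.4 to 66.3) complete the set. *Cma1* was not called by DESeq2, and the other 11 kept their direction and their call under every alternative fitted for them. The summed level of 8 macrophage markers was 219.8 and 271 unscaled CPM in control NMJ spots against 547 in the KO, and no marker was at 0. Of these 8 markers 2 rose and none fell, against 4.49% and 7.86% of all genes. The part of macrophages in the 12 largest rises was not tested.

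Schwann cell markers rose in both regions, and more so away from the endplate. Of 8 markers of Schwann cells, the glia that cap the terminal and wrap the axon, 5 rose in NMJ spots and none fell. The shares of all genes were 4.49% and 7.86%, and the median of the markers was 1.26, or 2.30 when scaled to the muscle genes. In other muscle 7 rose (median 2.03), where 10.7% of all genes did. By the test of the difference between regions 4 had a lower change in NMJ spots, against 0.858% of all genes. The summed level of the 8 markers was 111 and 126 unscaled CPM in the controls against 298, and 58.0 and 66.9 against 236 in other muscle, with no marker at 0 in any section. *Sox10*, their defining factor, stood at 6.06 and 11.2 CPM against 24.9 in NMJ spots (1.54, SE 0.36, adjusted p = 0.0193) and at 1.29 and 2.35 against 14.6 elsewhere, with a difference between regions of -1.50 (SE 0.29, adjusted p = 0.000218). The *Sox10* call in NMJ spots was lost with 74 spots in every section (0.53, adjusted p = 0.471), by DESeq2 (adjusted p = 0.124) and with 10% of muscle spots (adjusted p = 0.0789). *Mbp* (10.7 and 19.3 to 44.6) and *Cdh19* (5.96 and 4.85 to 21.3) rose as well, as did *Foxd3* (24.3 and 26.4 to 41.0), and the call of *Foxd3* was lost without control section 1. Motor axon markers were near the floor, with a sum of 2.76 and 14.7 against 20.7 unscaled CPM, 3 of 8 at 0 in the KO and no call among the 5 tested. The part of nerve in the rise of other genes was not tested.

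Other tissue in the spots was read from lists of markers. In NMJ spots 4.49% of all genes were called higher and 7.86% lower. Of 4 myotendinous junction genes, *Col22a1* (32.9 and 36.5 to 5.63 CPM, -2.62) and *Ankrd1* fell and *Rxrg* (109 and 106 to 163, 0.60) rose, the last a call lost when either control section was left out. Satellite cell markers gave no call. Endothelium (5 of 7 lower), fibroblasts (4 of 7), smooth muscle and pericytes (3 of 6), tendon (2 of 6) and cartilage (2 of 4) had falls and no rise, and the erythrocyte, hepatocyte and mesothelium lists had no call. Scaled to the 9 muscle genes, 1 endothelial marker rose and none fell, and 4 fibroblast markers rose and 1 fell. Rises and falls were then 2 and 0 for smooth muscle and pericytes, 3 and 2 for tendon, and 0 and 3 for cartilage. That scaling called 9015 of all genes higher and 107 lower. The summed cartilage markers were 1019 and 45.5 unscaled CPM in control NMJ spots against 22.8 in the KO section, with 2 of 5 at 0 there, and the hepatocyte markers 442 and 0.293 against 180.1, so that the controls lay far apart. Hepatocyte (5), erythrocyte (3), mesothelium (3), fibroblast (2) and Schwann cell (4) markers had a lower change in NMJ spots than in other muscle, and 1 tendon marker had a higher one. Of all genes 0.858% had a lower and 1.53% a higher change by this test. Of 8 muscle genes outside the rule 7 fell, but 1 fell and 2 rose when scaled to the 9 muscle genes. With the 25% of muscle spots richest in markers of other tissue left out, 1565 genes were called in NMJ spots in place of 1600, but 52 in place of 342 for the difference between regions.

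The largest differences between regions, by the same rule with 6 genes each way, were not those of synaptic genes alone. *Map3k7cl*, *Krt7*, *Shroom3*, *Prss23* and *Efnb1* were 5 of the 6 with the lowest (-1.67 to -0.82). *Shroom3*, an actin regulator, fell in NMJ spots (62.5 and 54.8 to 28.5 CPM, -1.04, SE 0.19, adjusted p = 0.00564) and was at 26.9 and 25 against 22.8 elsewhere. *Prss23*, a secreted protease, also fell in NMJ spots (-0.67, SE 0.18, adjusted p = 0.0363), a call lost without control section 2. *Krt7*, an epithelial keratin, was at 17.8 and 68.7 against 73.2 in NMJ spots and 17.0 and 64.4 against 129 elsewhere, so that the controls differed widely between themselves. *Hopx*, *Uchl1*, *Slc35e4*, *Myl3*, *Frzb* and *Chrna9* had the highest (1.01 to 0.80). *Hopx*, a homeodomain cofactor, rose in NMJ spots (28.2 and 32.7 to 55.5, 0.87, SE 0.22, adjusted p = 0.0273) and was at 30.7 and 37.9 against 30.2 elsewhere. Its rise kept its direction without control section 1 but not its call (0.76, adjusted p = 0.0683), and the call was also lost by DESeq2, with 10% or 25% of muscle spots, with 74 spots, above the median muscle score and without spots rich in other tissue. *Chrna9*, a receptor subunit outside the muscle receptor, fell in both regions, from 42.8 and 55.1 to 23.7 and from 73.9 and 76.8 to 20.6. *Uchl1*, an enzyme of ubiquitin recycling that also marks the myotendinous junction, *Slc35e4* and *Frzb*, a Wnt inhibitor, fell in other muscle (-1.60, -1.38 and -1.43) and were not called in NMJ spots.

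The same contrast at E14.5, with 1 KO section and 3 control sections and chosen by the same rule, called 0.432% of genes higher and 1.17% lower. A test of the difference between stages called 0.595% with a higher and 0.865% with a lower change at E18.5. Some endplate genes were lower than in controls at E14.5 and not at E18.5. *Ache* stood at 177, 148 and 131 CPM in NMJ spots of E14.5 controls 1, 2 and 3 against 50.3 in the KO, a log2 fold change of -1.60 (SE 0.19, adjusted p = 0.00189), and the difference between stages was 1.74 (SE 0.25, adjusted p = 0.00715). *Ufsp1* stood at 135, 114 and 117 against 42.6 with a difference between stages of 1.69 (SE 0.22, adjusted p = 0.00771), and *Lrtm1* at 37.2, 35.9 and 37.2 against 5.45 with 2.57 (SE 0.25, adjusted p = 0.0027). *Kcnn3* (-1.22 at E14.5 and 0.96 at E18.5) and *Cdh13* (-1.34 and -0.17) also differed between stages, as did the metabolic genes *Ckm* (-3.42 and -0.94) and *Cpt1b* (-4.39 and -0.80). The AChR subunits were not called at E14.5, and no difference between stages was called for them (*Chrng* 0.86, SE 0.26, adjusted p = 0.13, *Chrne* 3.15, SE 0.76, adjusted p = 0.0674). At E14.5 *Chrne* was near the floor. NMJ spots held 11, 10 and 2 of its UMIs in controls 1, 2 and 3 and 2 in the KO section.

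Other genes had a lower change at E18.5 than at E14.5. *Map3k7cl* fell at both stages, from 30.7, 30.5 and 21.4 to 9.92 CPM at E14.5 (-1.51, SE 0.24, adjusted p = 0.0105), and the difference between stages was -3.14 (SE 0.43, adjusted p = 0.00745). *Csrp3* (-1.66 and -4.63), *Myl2* (-2.55 and -4.78), *Fhl1* (-1.18 and -3.11) and *Tppp3* (-0.60 and -3.29) followed the same order. *Myh4* (-0.86 and 2.13) and *Sdf2l1* (0.18 and 2.15) had the higher change at E18.5. The number of genes that differed between stages was 189 with all sections, 105 without E14.5 control 2 and 94 without E14.5 control 3, and the calls of *Myl2*, *Hyou1*, *Flnc*, *Cdh13* and *Myh3* were lost when either was left out. At E14.5 itself 207 genes were called, or 136 without control 2.

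**Figure D5:**
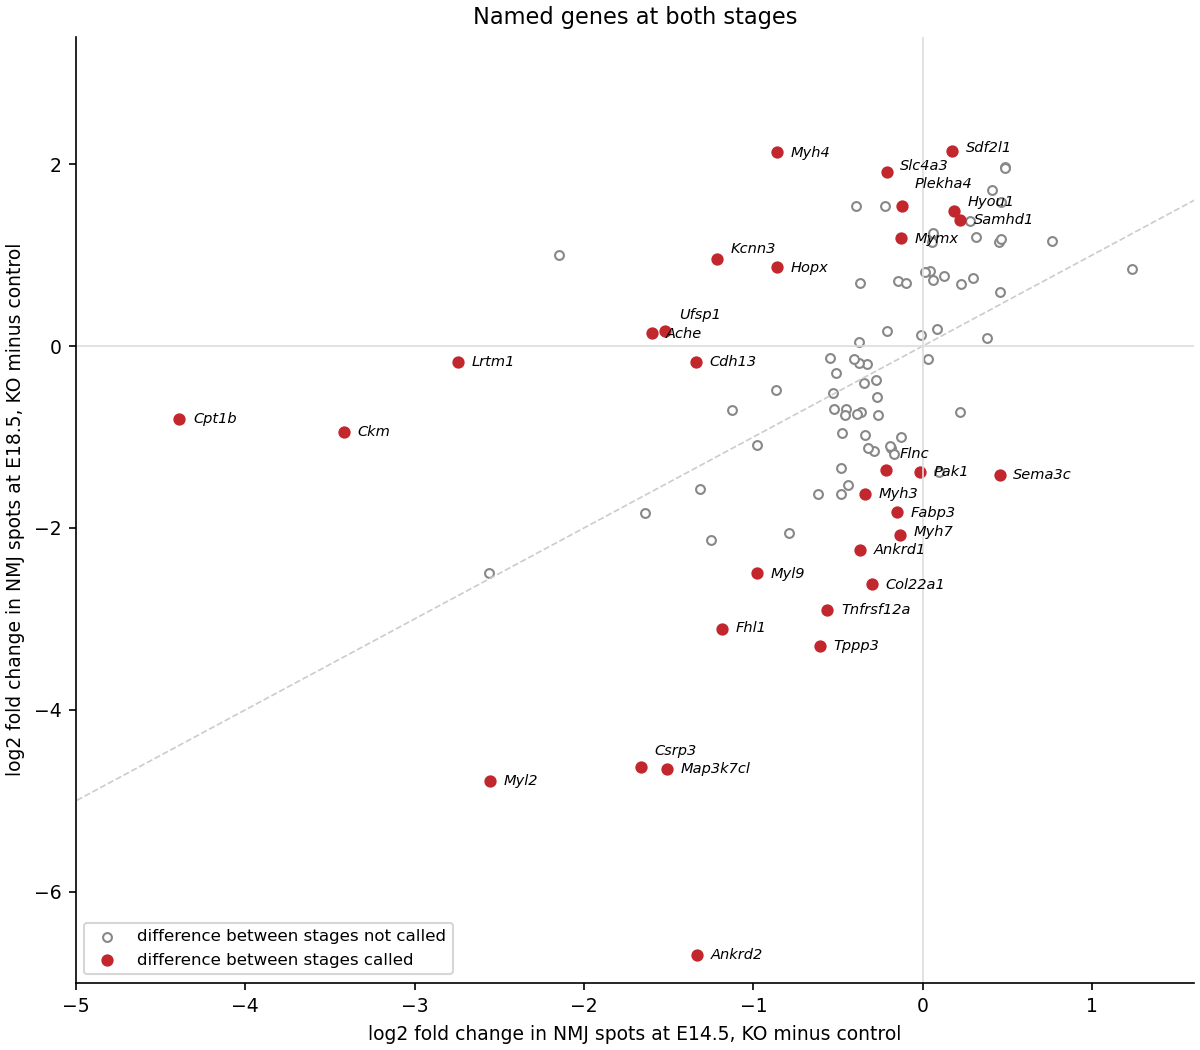
log2 fold change in NMJ spots, KO minus control, at E14.5 (horizontal axis) and at E18.5 (vertical axis), 1 point per gene. The dashed line marks equal changes. Red points with names are genes whose difference between stages was called, such as *Cpt1b* (-4.39 and -0.80), *Lrtm1* (-2.75 and -0.17) and *Ankrd2* (-1.33 and -6.69).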

How the data were processed

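Diaphragm sections were measured with the probe-based Visium assay. The authors aligned reads to the mouse probe set with Space Ranger, and the deposited matrices hold counts of UMIs per gene and spot, not normalized. The file headers name version 2.0.0 for E14.5 control sections 1 and 2 and the E14.5 KO section and version 2.0.1 for the other 5, and the submitters' processing notes name the mm10 build. Spatial autocorrelation tables and image scale factors were not used here.

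NMJ spots and other muscle spots were summed per section, with each section as 1 replicate taken from its GEO title. NMJ sums of the 3 sections compared held 2459388 to 11952642 UMIs. Sums were tested in R 4.3.3 with edgeR 4.0.16 (filterByExpr, TMM, quasi-likelihood F test, 5 groups and 3 residual degrees of freedom). For the difference between regions, both sums of each section entered 1 fit with a term per section. P-values measure only the spread between sections. The fit was also run on simulated counts, and the outcome is not given here. DESeq2 1.42.0, other scalings, filters, spot rules and left-out sections served as alternatives. Levels are TMM-scaled CPM, and ratios between regions use unscaled CPM. Shares have 95% Clopper-Pearson intervals, and intervals cover counting error only. Thinned shares are expected values at 10000 UMIs per spot. Promoters and positions came from RefSeq tables of GRCm38.p6, which hold 13 of the 14 promoters looked up.

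Named genes were those called whose log2 CPM averaged 5 or more over the 3 sections and whose KO level fell outside the control range, the 12 with the largest rise and the 12 with the largest fall, 6 each way for the difference between regions, *Cacna1s*, the 16 genes of the rule, and members of 18 gene lists and 15 marker lists. *Scn3b*, *Kcne1l*, *Crym*, *Klhl6*, *Bend4*, *Pdzrn4* and *Sct*, members of the list taken from the cKO section, were named after their values were seen. A few members of these lists are not reported here. The members, lists and tests were chosen with earlier results of these data known.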

Additional observations from a re-analysis of the deposited data

Results flagged for a closer look

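Each value below is a difference of log2 fold changes, KO minus control, that edgeR's quasi-likelihood F test called at a Benjamini-Hochberg adjusted p below 0.05, either between NMJ spots and other muscle spots of the same sections or between E18.5 and E14.5. Both comparisons share the control sections of E18.5.

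The change differed between regions for 342 genes. Of the genes named in the text, the lower change in NMJ spots was that of *Map3k7cl* -1.67, *Sox10* -1.50, *Chrne* -1.24, *Pdzrn4* -1.23, *Klhl6* -0.95, *Krt7* -0.93, *Shroom3* -0.88, *Prss23* -0.88, *Efnb1* -0.82, *Mbp* -0.79, *Slit2* -0.77, *Scn3b* -0.69, *Dusp6* -0.68, *Chrng* -0.42, *Map2k1* -0.39 and *Nid2* -0.33. The higher change in NMJ spots was that of *Hopx* 1.01, *Uchl1* 1.0, *Slc35e4* 0.86, *Myl3* 0.86, *Frzb* 0.83, *Chrna9* 0.80, *Smtnl1* 0.59, *Kremen1* 0.53, *Dtna* 0.50, *Rxrg* 0.45, *Myh8* 0.45, *Sntb1* 0.45, *Gadd45a* 0.45, *Tnni2* 0.44, *Casq2* 0.41, *Ckm* 0.39, *Ablim3* 0.37, *Atp2a1* 0.34 and *Ank3* 0.33. Of the genes that chose the spots, each read in regions chosen without it, *Ufsp1* -0.89, *Chrnd* -0.79, *Etv5* -0.66, *Chrna1* -0.63 and *Prkar1a* -0.52 had the lower change in NMJ spots. The muscle genes among them had the higher one, with *Mylpf* 0.39, *Ryr1* 0.39, *Tnnt3* 0.38, *Ttn* 0.37, *Acta1* 0.37, *Myl1* 0.36, *Des* 0.35, *Actn2* 0.34 and *Neb* 0.33.

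The change differed between stages for 189 genes. Of the genes named in the text, *Ankrd2* -5.36, *Map3k7cl* -3.14, *Csrp3* -2.97, *Tppp3* -2.69, *Tnfrsf12a* -2.34, *Col22a1* -2.32, *Myl2* -2.22, *Myh7* -1.95, *Fhl1* -1.93, *Sema3c* -1.87, *Ankrd1* -1.87, *Fabp3* -1.67, *Myl9* -1.52, *Pak1* -1.37, *Myh3* -1.29 and *Flnc* -1.14 had the lower change at E18.5. The higher change at E18.5 was that of *Cpt1b* 3.59, *Myh4* 2.99, *Lrtm1* 2.57, *Ckm* 2.47, *Kcnn3* 2.18, *Slc4a3* 2.12, *Sdf2l1* 1.97, *Hopx* 1.73, *Plekha4* 1.66, *Mymx* 1.32, *Hyou1* 1.3, *Cdh13* 1.17 and *Samhd1* 1.16, and, in regions chosen without the gene, of *Ache* 1.74 and *Ufsp1* 1.69.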

How the results depend on the processing

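No paired analysis was possible because the KO group has 1 section. The KO section has no replicate, so its spread was assumed to be that of the controls, and the depth of its NMJ spots, 2459388 UMIs against 11952642 and 10230758, limits what can be seen for genes of low level. Calls in NMJ spots at E18.5, 1600 genes with 36.4% of them higher, numbered 888 by DESeq2, 9122 when scaled to the 9 muscle genes, 1041 with 10% of muscle spots as NMJ spots and 949 with 74 NMJ spots in every section, and between 1359 and 1405 with a control section left out. In other muscle, 3813 calls became 12416 when scaled to the muscle genes and 2224 with 3 sections of E18.5 in the fit, and 2939 to 3438 with a control section left out. For the difference between regions 342 calls became 0 by DESeq2, 1769 when scaled to the muscle genes (5 higher and 1764 lower, in place of 219 and 123), 175 with 25% of muscle spots as NMJ spots, 26 in muscle spots above the median muscle score, 176 with sums thinned to the smallest, 52 without spots rich in other tissue and 61 to 248 with a control section left out, the lowest without control section 1. At E14.5, 207 calls became 4044 when scaled to the muscle genes, 695 with no filter on low counts and 136 to 165 with a control section left out. Between stages, 189 calls became 664 when scaled to the muscle genes, 871 with no filter, 96 and 426 with 10% and 25% of muscle spots as NMJ spots, 330 in muscle spots above the median muscle score and 94 to 248 with a section left out. The 7 calls in NMJ spots at E18.5 among the 16 genes of the rule became 6 to 7 with a control section left out. Their differences between regions and between stages were not refitted under any alternative. The share of NMJ spots among muscle neighbors in the KO section, 34.9%, was 24.9% and 45.7% with 10% and 25% of muscle spots, 32.6% with *Chrng* in the score and 29.96% in muscle spots above the median muscle score (controls lay between 38.6% and 58.5% under these 4). By alternatives added after the data were seen, it was 22.5% with 74 spots in every section, above the controls (15.1% and 20.7%), and 32.3% without spots rich in other tissue (57.4% and 55.5%). The median ratio between regions of the endplate markers outside the score other than *Chrng*, in the KO section, 1.39, was 1.43 with 10%, 1.40 with *Chrng* and 1.37 above the median muscle score. The causes of these changes were not tested.

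Scaled to the muscle genes, the change in NMJ spots turned to 0.92 for *Dtna*, 0.91 for *Kremen1*, 0.90 for *Map2k1*, 0.88 for *Lrtm1*, 0.87 for *Cdh13*, 0.86 for *Efnb1*, 0.86 for *Chrnb1*, 0.75 for *Pdzrn4*, 0.67 for *Dusp6*, 0.57 for *Ank3*, 0.53 for *Col4a2*, 0.48 for *Dmd*, 0.38 for *Prss23*, 0.36 for *Dvl1*, 0.32 for *Prkar2a*, 0.32 for *Hdac9*, 0.30 for *Syne1*, 0.29 for *Myh8*, 0.29 for *Plec*, 0.25 for *Cpt1b*, 0.11 for *Ckm*, 0.084 for *Efnb2*, 0.074 for *Atp2a1*, 0.042 for *Casq2*, 0.011 for *Chrna9* and 0.0032 for *Shroom3*. With 74 spots in every section *Chrne* turned to -0.052, and above the median muscle score *Map2k1* turned to 0.51. The difference between regions turned to -0.014 for *Ablim3*, -0.044 for *Atp2a1* and -0.052 for *Ank3* when scaled to the muscle genes and to 0.33 for *Scn3b*, 0.26 for *Nid2*, 0.011 for *Efnb1*, 0.0094 for *Shroom3*, -0.096 for *Ckm* and -0.16 for *Atp2a1* above the median muscle score. Of the other alternatives fitted for the named genes, 1489 kept direction and call in NMJ spots, 134 lost and 24 gained the call. For the difference between regions 320 kept and 196 lost it, and between stages 362 kept and 39 lost it. The cause was not tested.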
